A study of Homo sapiens with 27 samples.

Results

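The 10 genes described here encode chemokines, chemokine receptors and IL6-type cytokines. They are the chemokines CCL2, CCL26, CXCL1, CXCL2, CXCL3 and CXCL12, the receptors CXCR4 and ACKR3, and the cytokines IL6 and LIF. They were taken by symbol from the 55882 gene symbols of each count file, and the list itself was drawn up with earlier results of these data known. Poly(A) RNA was sequenced from U2OS cells, a human osteosarcoma line with epithelial-like growth, in 27 libraries. The 9 groups of 3 libraries were 3 stable lines at 3 times of cell expansion: day −2 (plated at low density, subconfluent), day 0 (confluent) and day +2 (overconfluent). All 3 lines were made by lentiviral transduction and puromycin selection, and each construct is represented by 1 line (whether pooled or clonal is not stated in the sources used here), so that an effect of the shRNA and other differences between lines cannot be told apart. The pLKO.1 control, titled WT in the labels, carried the blank vector, MMP2sh1 and MMP2sh2 each carried a different shRNA against MMP2, and none was given a stimulus such as a cytokine. The labels number the shRNA lines otherwise, and these were taken here, in the order of their numbers, as sh1 and sh2 of the study. MMP2 encodes a secreted protease that the study examined as a nuclear protease of the histone H3 tail, and the question asked of the RNA was which genes change when it is depleted.

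Chemokines are small secreted proteins that draw cells along a gradient by acting on receptors coupled to G proteins. CC and CXC chemokines differ in the spacing of their N-terminal cysteines. Atypical receptors such as ACKR3 bind chemokines and take them up without the usual G protein signal, and so shape the gradient. IL6 and LIF act through receptor complexes that share the subunit IL6ST (gp130) and signal through JAK kinases and STAT3, with SOCS3 as a feedback inhibitor. Cells of the osteoblast lineage are known to make CCL2, CXCL12, IL6 and LIF. NF-kB is a known activator of CCL2, the CXCL1 group and IL6 in many cell types.

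The total count on genes was 33580129 to 59374327 per library (median 40075178), so a count of 0 allows a level of up to 0.0505 to 0.0893 CPM (a gene's count scaled to a fixed total of counts on genes, with TMM factors in all levels below) in a library, from 3 counts and for counting error only. MMP2 was lower in every comparison of an shRNA line with the control, with log2 fold changes of −2.53, −2.47 and −2.34 in MMP2sh1 and −0.70, −1.06 and −0.82 in MMP2sh2 at days −2, 0 and +2. The labelled cell type was checked against fixed markers. Of 9 mesenchymal and osteoblast markers 5 had a mean of at least 1 CPM, among them COL1A1 (1237 CPM), SPARC (1452), VIM (769.9) and RUNX2 (46.3), while COL1A2, SP7, BGLAP and IBSP were at 0.133 CPM, 0.0378, 0.138 and 0. The 6 leukocyte markers, PTPRC included, summed to 0.207 to 2.04 CPM per library, and none had a mean of 1 CPM. Of 6 epithelial markers KRT8, KRT18 and EPCAM were at 349, 141 and 4.78 CPM, and their list summed to 363 to 759 CPM. This sum was 490 to 530 CPM in the control at day −2, 363 to 388 at day +2, and 694 to 759 in MMP2sh1 and 605 to 690 in MMP2sh2 at day −2. Of the endothelial markers, 3 of 4 were matched and summed to 1.63 to 5.18 CPM, with VWF highest. The mesenchymal sum was 4154 to 4230 CPM in MMP2sh1 at day +2 and 3316 to 3474 in the control on that day, with VIM, COL1A1, SPARC and ALPL called higher, and 3140 to 3839 CPM in the 7 remaining groups. The epithelial sum was higher than in the control in all libraries of MMP2sh2 at each day (484 to 497 against 415 to 458 CPM at day 0, and 397 to 400 against 363 to 388 at day +2) and of MMP2sh1 at days −2 and +2 (398 to 411 at day +2), and overlapped at day 0 (452 to 476). These marker levels thus moved with the lines and days in which the members differed, and their part in the values below was not tested. Among library pairs of a group, the chi-square per degree of freedom was 4.74 to 13.1, except for MMP2sh1 day −2 replicate 1 against its replicates 2 and 3 (19.3 and 24.6), so that this library stood apart. Without it the values of MMP2sh1 at day −2 against the control were −1.05 for CCL26 (adjusted p = 0.0032) and −0.99 for ACKR3 (adjusted p = 8.3e-09), and the changes of MMP2sh1 over the expansion were 2.93 for CCL2, −1.34 for CCL26, −2.80 for ACKR3 and −0.40 for LIF, each still called, and −1.45 for CXCL12, no longer called (adjusted p = 0.052).

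Only 4 of the 10 members had a mean of at least 1 CPM over the 27 libraries. Per kilobase of exon, with the exons of all annotated transcripts joined, LIF was highest at a mean level of 21.2 CPM per kb. ACKR3 was at 10.7, CCL2 at 7.01 and CCL26 at 5.65. For CCL2 the joined exons span 1935 bp and the longest protein-coding transcript 1139 bases, against 2070 bp and 2015 bases for ACKR3. The order of CCL2 and ACKR3 thus depends on the length used. CXCL3, CXCL12 and IL6 were at 0.197, 0.150 and 0.0459 CPM per kb. CXCL1 and CXCR4 had no counted read in any of the 27 libraries, and CXCL2 had 2 reads in all. Over the summed 1126047859 counts, a count of 0 allows up to 0.00266 CPM. The ligand CXCL12 thus had a low mean level beside a higher one of ACKR3. At day +2 the ACKR3 means were only 8.65 CPM in the control, 2.585 in MMP2sh1 and 4.84 in MMP2sh2. CXCR4, the signalling receptor for CXCL12, was not detectable at this depth.

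**Figure D1:**
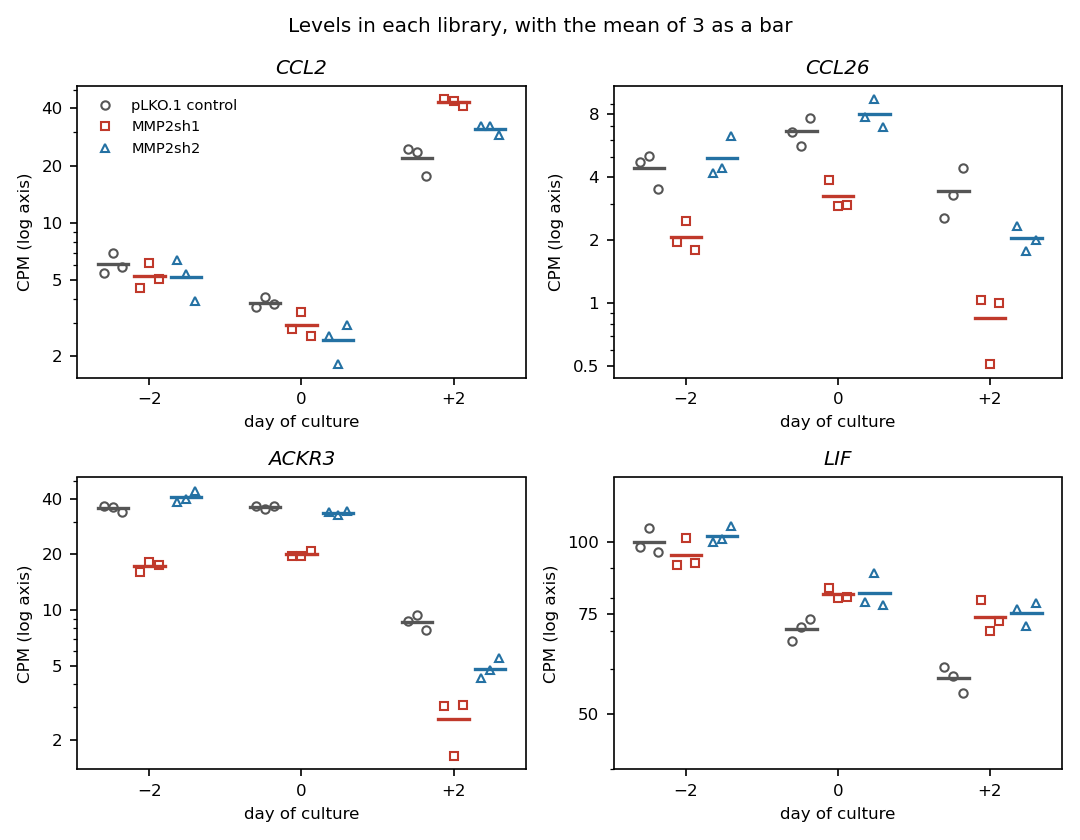
CPM (log axis) of the 4 members with a mean of at least 1 CPM, in each of the 3 libraries (symbols) of each line at each day of culture, with the mean of 3 as a bar. CCL2 was highest at day +2 in all 3 lines, ACKR3 was lowest at day +2 in all 3 lines, CCL26 was lower in MMP2sh1 than in the control at each day, and LIF was highest at day −2.

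CCL2 (MCP-1), a chemokine for monocytes, is encoded on chromosome 17 at chr17:32582293-32584227 on the plus strand of GRCh37, and its canonical transcript has 3 exons. Its level in the control was 5.47, 6.94 and 5.85 CPM at day −2, 3.64, 4.08 and 3.77 CPM at day 0, and 24.4, 23.7 and 17.8 CPM at day +2. The 3 days did not overlap, with the lowest values at confluence and the highest 2 days later. From day −2 to day 0 the log2 fold change was −0.66 (SE, the standard error, 0.16, adjusted p = 0.002, by the quasi-likelihood fit of edgeR and the Benjamini-Hochberg method over all genes tested, as for every adjusted p below), and from day 0 to day +2 it was 2.54 (SE 0.13, adjusted p = 2.2e-16), a 5.81-fold rise. Over the whole expansion CCL2 rose by 1.86 on the log2 scale in the control (SE 0.12, adjusted p = 7.2e-13).

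At day −2 the CCL2 level was 4.57, 6.17 and 5.10 CPM in MMP2sh1 and 6.43, 5.38 and 3.88 CPM in MMP2sh2, which overlapped the control. At day 0 it was 2.79, 3.42 and 2.55 CPM in MMP2sh1 and 2.57, 1.82 and 2.91 CPM in MMP2sh2, below the control in each library. At day +2 it was 44.6, 43.8 and 41.2 CPM in MMP2sh1 and 32.1, 32.3 and 29.1 CPM in MMP2sh2. All 6 shRNA libraries of day +2 were above the 3 of the control, and the 6 leukocyte markers summed to 0.207 to 0.479 CPM in MMP2sh1, 0.400 to 1.43 in MMP2sh2 and 0.266 to 0.539 in the control on that day. Against the control, CCL2 at day +2 was higher by 0.98 on the log2 scale in MMP2sh1 (SE 0.09, adjusted p = 3.3e-09), a 1.97-fold difference, and by 0.51 in MMP2sh2 (SE 0.09, adjusted p = 1.6e-04), a 1.42-fold difference. At day 0 it was lower in MMP2sh2 by −0.67 (SE 0.21, adjusted p = 0.033), and the difference of −0.39 in MMP2sh1 did not pass (adjusted p = 0.18). The MMP2sh2 value at day 0 did not pass without any 1 of control replicates 1, 2 or 3 or MMP2sh2 replicates 1 or 2 (−0.70, −0.62, −0.68, −0.71 and −0.50, adjusted p 0.06 to 0.19). MMP2sh1 and MMP2sh2, which share no library, differed at day +2 by 0.47 (SE 0.07, adjusted p = 1.4e-04).

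The rise of CCL2 over the expansion was 3.02 on the log2 scale in MMP2sh1 (SE 0.11, adjusted p = 1.4e-16) and 2.57 in MMP2sh2 (SE 0.13, adjusted p = 1.4e-17), or 8.13-fold and 5.94-fold, beside 3.63-fold in the control. Tested as an interaction of line and day, the rise exceeded that of the control by 1.17 in MMP2sh1 (SE 0.17, adjusted p = 3.2e-05) and by 0.71 in MMP2sh2 (SE 0.19, adjusted p = 0.019). The latter did not pass without control day −2 replicate 2 (0.61, adjusted p = 0.069), control day +2 replicate 3 (0.59, adjusted p = 0.078) or MMP2sh2 day −2 replicate 3 (0.55, adjusted p = 0.074). Both interactions use the same control libraries. In the order of CCL2 levels, MMP2sh1, MMP2sh2 and the control at day +2 stood highest and did not overlap, the 3 lines at day −2 overlapped each other, and the shRNA lines at day 0 were lowest and overlapped each other.

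CCL26 (eotaxin-3), a chemokine for eosinophils, is encoded at chr7:75398851-75419214 on the minus strand of GRCh37. Control libraries held 4.72, 5.04 and 3.54 CPM of it when subconfluent, 6.56, 5.65 and 7.67 CPM when confluent and 2.55, 3.29 and 4.45 CPM when overconfluent, so that it was highest at confluence, where CCL2 was lowest. CCL26 rose by 0.58 on the log2 scale up to confluence (SE 0.17, adjusted p = 0.0071) and its log2 fold change over the next 2 days was −0.92 (SE 0.18, adjusted p = 1.5e-04). The former did not pass without control day 0 replicate 3 (0.46, adjusted p = 0.06). From day −2 to day +2 the value was −0.37 (adjusted p = 0.14), which passed without control day −2 replicate 3 (−0.50, adjusted p = 0.046) or control day +2 replicate 3 (−0.60, adjusted p = 0.025).

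In MMP2sh1, CCL26 was at 1.97, 2.48 and 1.81 CPM at day −2, at 3.87, 2.93 and 2.94 CPM at day 0 and at 1.04, 0.512 and 1.01 CPM at day +2. Each of these libraries was below each control library of its day. The log2 fold change against the control was −1.09 at day −2 (SE 0.22, adjusted p = 0.0013), −1.02 at day 0 (SE 0.17, adjusted p = 3.5e-05) and −2.01 at day +2 (SE 0.30, adjusted p = 9.7e-06), the last a 4.03-fold difference from 20 to 42 counted reads per MMP2sh1 library. In MMP2sh2 it was at 4.19, 4.45 and 6.29 CPM at day −2 and at 7.74, 9.44 and 6.96 CPM at day 0, which overlapped the control (adjusted p = 0.69 and 0.25). At day +2 MMP2sh2 was at 2.35, 1.79 and 2.01 CPM, lower than the control by −0.75 (SE 0.23, adjusted p = 0.041). This call of MMP2sh2 was lost with DESeq2 (adjusted p = 0.074) and without control day +2 replicate 2 or 3 or MMP2sh2 day +2 replicate 2 or 3 (−0.78, −0.52, −0.66 and −0.73, adjusted p 0.079 to 0.36).

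Set against MMP2sh2, CCL26 in MMP2sh1 was lower by −1.25 at day −2, −1.28 at day 0 and −1.26 at day +2 (SE 0.22, 0.16 and 0.32, adjusted p = 2.8e-04, 2.3e-07 and 0.015), and the last did not pass without MMP2sh1 replicate 2 (−1.01, adjusted p = 0.08) or MMP2sh2 replicate 1 (−1.16, adjusted p = 0.085). CCL26 fell from day −2 to day +2 in MMP2sh1 by 1.30 on the log2 scale (SE 0.35, adjusted p = 0.0029) and in MMP2sh2 by 1.27 (SE 0.22, adjusted p = 9.6e-06). The difference of these changes from that of the control was −0.92 in MMP2sh1 (adjusted p = 0.14) and −0.91 in MMP2sh2 (adjusted p = 0.078), and neither passed. Without control day +2 replicate 1 the value of MMP2sh2 was −1.06 and passed (adjusted p = 0.033).

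CCL24 (eotaxin-2), which acts on the same receptor, CCR3, lies 20929 bp from CCL26 on chromosome 7. CCL24 rose over the expansion. Its control means were 2.22 CPM when subconfluent, 4.86 when confluent and 14.2 when overconfluent, a log2 fold change of 2.69 (SE 0.14, adjusted p = 3.8e-15) over the expansion, beside the −0.37 of CCL26, which did not pass. In MMP2sh1 at day +2, CCL24 was at 24.1 ± 4.36 CPM (SD, n = 3) and higher than in the control by 0.76 (SE 0.11, adjusted p = 4e-06), while CCL26 was lower by −2.01.

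CXCL1, CXCL2 and CXCL3 (GRO-alpha, -beta and -gamma) are chemokines for neutrophils that act on CXCR2. They lie on chromosome 4 of GRCh37 at chr4:74735110-74737025 (CXCL1, plus strand), chr4:74962757-74964913 (CXCL2, minus strand) and chr4:74902306-74904524 (CXCL3, minus strand). CXCL1 had 0 reads in 27 of 27 libraries, CXCL2 had 1 read in each of 2 libraries (control day +2 replicate 2 and MMP2sh2 day 0 replicate 1), and CXCL3 had 5 to 37 reads in each of the 27. No window of 150 bases of the longest protein-coding transcript of any of the 3 genes was shared with the transcript of another gene. Their receptor CXCR2 had 12 reads in all and CXCR1 had none.

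The promoters of these 3 genes are shown because they are nearly the same sequence beside unlike read counts. Each line gives 120 bases, from 110 before to 10 after the transcription start of RefSeq on GRCh38.p14, 5′ to 3′ on the strand of the gene, at chr4:73869283-73869402 for CXCL1, chr4:74099186-74099305 for CXCL2 and chr4:74038680-74038799 for CXCL3, with IL6 at chr7:22727090-22727209 as a further known NF-kB target. Capitals mark the motif GGNNTTTCC, a core of NF-kB sites.
CXCL1: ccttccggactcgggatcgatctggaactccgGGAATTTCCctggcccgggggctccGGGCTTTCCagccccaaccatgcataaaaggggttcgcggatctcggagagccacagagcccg
CXCL2: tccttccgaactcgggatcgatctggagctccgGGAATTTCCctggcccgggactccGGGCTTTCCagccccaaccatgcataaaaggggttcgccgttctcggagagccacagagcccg
CXCL3: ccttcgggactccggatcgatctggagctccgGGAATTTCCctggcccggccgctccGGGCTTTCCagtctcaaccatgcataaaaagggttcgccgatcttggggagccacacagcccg
IL6: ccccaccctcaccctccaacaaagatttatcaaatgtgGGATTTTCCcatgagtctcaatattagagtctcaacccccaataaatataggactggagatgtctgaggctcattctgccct

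CXCL1 and CXCL2 were identical at 95.0% of these bases, CXCL1 and CXCL3 at 90.0% and CXCL2 and CXCL3 at 89.2%, when aligned with gaps. The motif occurred 2 times in each of the 3 chemokine windows and 1 time in that of IL6. Searched on both strands of the 300 bases that RefSeq promoters of this table span, it occurred in 2198 of 35116 promoters (6.26%). Of the members, 7 of 10 had a promoter in the RefSeq table. Of the other matched members, CCL26 and CXCL12 held no match, and CXCR4 held 1 match in 1 of its 3 windows. The motif TTCNNNGAA, a core of STAT sites, occurred in 2689 of 35116 promoters (7.66%) and in none of the windows of the 7 members. A match is a description of letters and no measure of binding.

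The CXCL3 level was 0.122 to 0.752 CPM over the 27 libraries. CXCL3 was tested in all 16 comparisons and passed in none with all libraries. Control libraries held 0.450, 0.331 and 0.468 CPM of CXCL3 when subconfluent, 0.173, 0.236 and 0.585 CPM when confluent, and 0.709, 0.662 and 0.701 CPM when overconfluent, above the others. The log2 fold change from day 0 to day +2 was 1.09 (SE 0.55, adjusted p = 0.11), and it was 1.76 and passed without control day 0 replicate 3 (adjusted p = 0.037). In the same cells CXCL8 (named IL8 in the files), a further CXCR2 ligand of this cluster, went from 0.553 to 1.54 CPM between these days in the control, a log2 fold change of 1.50 (SE 0.38, adjusted p = 0.0017).

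**Figure D2:**
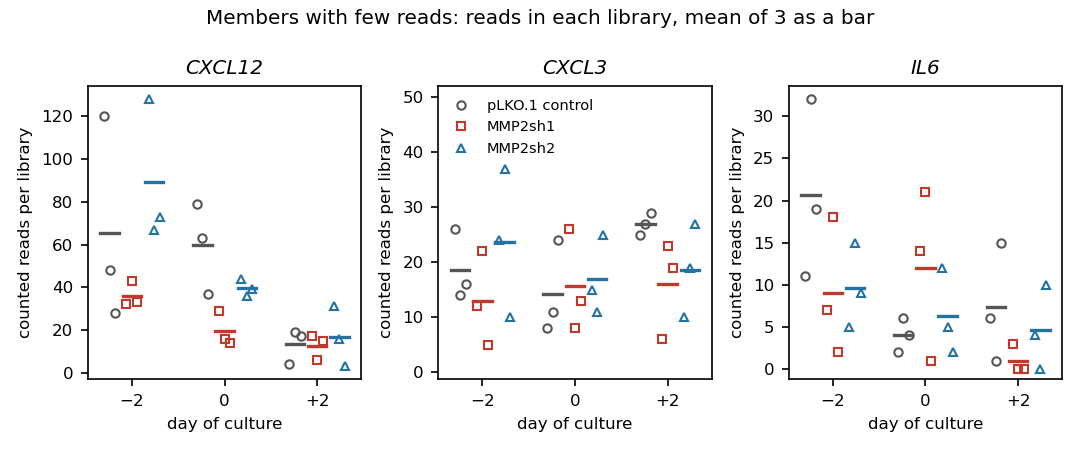
Counted reads per library for CXCL12, CXCL3 and IL6, with 3 libraries (symbols) per line and day of culture and their mean as a bar. CXCL12 had 3 to 31 reads at day +2 and up to 128 at day −2, CXCL3 had 5 to 37 and IL6 had 0 to 32, while CXCL1 and CXCR4 (not drawn) had 0 in all libraries.

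CXCL12 (SDF-1), a homing signal for blood stem cells and leukocytes, is encoded at chr10:44865613-44881941 on the minus strand of GRCh37. It had 120, 48 and 28 reads in the control at day −2, 79, 63 and 37 at day 0 and 4, 19 and 17 at day +2. In MMP2sh1 it had 32, 43 and 33 reads at day −2, 29, 16 and 14 at day 0 and 17, 6 and 15 at day +2. In MMP2sh2 it had 128, 67 and 73 reads at day −2, 44, 36 and 39 at day 0 and 31, 16 and 3 at day +2. In all 3 lines the libraries of day −2 and day +2 did not overlap on the CPM scale, with day +2 lower.

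CXCL12 fell over the expansion, with a log2 fold change of −2.01 in the control (SE 0.49, adjusted p = 9.3e-04), −1.44 in MMP2sh1 (SE 0.53, adjusted p = 0.024) and −2.43 in MMP2sh2 (SE 0.47, adjusted p = 5.8e-05). By step, the control values were −0.04 up to confluence (adjusted p = 0.95) and −1.95 after it (SE 0.48, adjusted p = 0.0013). The fall in MMP2sh1 did not pass without its day −2 replicates 1 or 2 or its day +2 replicates 2 or 3 (−1.45, −1.40, −1.12 and −1.54, adjusted p 0.052 to 0.12). At day 0, CXCL12 was lower in MMP2sh1 than in the control by −1.61 (SE 0.41, adjusted p = 0.0051), and this value was −1.38 without control day 0 replicate 1 and did not pass (adjusted p = 0.059). The values of MMP2sh1 at day −2 and day +2 were −0.65 (adjusted p = 0.32) and −0.07 (adjusted p = 0.96), and those of MMP2sh2 were 0.65, −0.30 and 0.25 at the 3 days (adjusted p = 0.24, 0.66 and 0.90).

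MMP2sh1 was lower in CXCL12 than MMP2sh2 by −1.32 at day −2 (SE 0.35, adjusted p = 0.013) and −1.31 at day 0 (SE 0.43, adjusted p = 0.028). The first did not pass without MMP2sh2 day −2 replicate 1 (−0.97, adjusted p = 0.15), which has 128 reads. The second did not pass without any 1 of its 6 libraries, MMP2sh1 replicates 1, 2 or 3 (−1.41, −1.25 and −1.29) or MMP2sh2 replicates 1, 2 or 3 (−1.22, −1.37 and −1.35), with adjusted p 0.055 to 0.11, nor with edgeR (0.067) or DESeq2 (0.056) on all 27 libraries.

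ACKR3 (CXCR7), the atypical receptor that binds and scavenges CXCL12, is encoded at chr2:237476430-237490997 on the plus strand of GRCh37. Its control levels were 36.5, 35.9 and 34.0 CPM when subconfluent, 36.6, 35.3 and 36.3 CPM when confluent and 8.71, 9.44 and 7.79 CPM when overconfluent. The former 2 stages overlapped (log2 fold change 0.03, SE 0.07, adjusted p = 0.77), and after confluence ACKR3 fell by 2.04 on the log2 scale (SE 0.09, adjusted p = 9.1e-18), a 4.11-fold fall in 2 days of overconfluence.

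In MMP2sh1, ACKR3 was at 16.2, 18.3 and 17.6 CPM at day −2, at 19.6, 19.6 and 20.7 CPM at day 0 and at 3.03, 1.64 and 3.09 CPM at day +2. Every one of these 9 libraries was below the 3 control libraries of its day. The log2 fold change against the control was −1.03 (SE 0.08, adjusted p = 4.2e-09) at day −2, −0.86 (SE 0.07, adjusted p = 8e-11) at day 0 and −1.74 (SE 0.19, adjusted p = 5.4e-08) at day +2, or 2.04-fold, 1.81-fold and 3.34-fold lower. MMP2sh2 was at 38.6, 39.7 and 44.1 CPM at day −2, at 33.7, 32.7 and 34.2 CPM at day 0 and at 4.30, 4.73 and 5.50 CPM at day +2. At days −2 and 0 the values of MMP2sh2 against the control were 0.20 (SE 0.07, adjusted p = 0.086) and −0.12 (SE 0.07, adjusted p = 0.29), with no overlap between the groups but no call. At day +2 ACKR3 was lower in MMP2sh2 by −0.84 (SE 0.15, adjusted p = 8.4e-05), a 1.78-fold difference.

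MMP2sh1 was lower in ACKR3 than MMP2sh2 by −1.23 at day −2 (SE 0.09, adjusted p = 1.4e-10), −0.73 at day 0 (SE 0.07, adjusted p = 2.7e-09) and −0.91 at day +2 (SE 0.22, adjusted p = 0.0089). The last did not pass without MMP2sh1 day +2 replicate 2 (−0.67, adjusted p = 0.06), the library with 64 reads. ACKR3 fell over the expansion, with a log2 fold change of −2.03 in the control (SE 0.09, adjusted p = 1.2e-16), −2.75 in MMP2sh1 (SE 0.17, adjusted p = 2.8e-12) and −3.07 in MMP2sh2 (SE 0.11, adjusted p = 3e-21). The change differed from that of the control by −0.71 in MMP2sh1 (SE 0.19, adjusted p = 0.019) and by −1.04 in MMP2sh2 (SE 0.14, adjusted p = 6.3e-06), in the interaction of line and day. The value of MMP2sh1 was −0.64 without control day +2 replicate 2 (adjusted p = 0.066) and −0.47 without MMP2sh1 day +2 replicate 2 (adjusted p = 0.10), and passed in neither.

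CXCR4, the signalling receptor for CXCL12, is encoded at chr2:136871919-136876747 on the minus strand of GRCh37 and had no read in any library. The other receptors of the expressed members were measured for the same lines. CCR2, the main receptor for CCL2, had 2 reads in all, both in MMP2sh1 day 0 replicate 3. CCR3 had 192 reads in 22 of the 27 libraries and CX3CR1, which also binds CCL26, had 156 reads in 23, at means of 0.169 and 0.136 CPM. CCR2 thus had reads in 1 library only, and CCR3 had 0 to 25 and CX3CR1 0 to 17 reads per library. DARC, an atypical receptor that also binds CCL2, had 21 to 196 reads. Of the 21 other chemokine receptors on the list, 3 had a mean of at least 1 CPM (CCR1, CXCR6 and ACKR1, named DARC in the files).

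**Figure D3:**
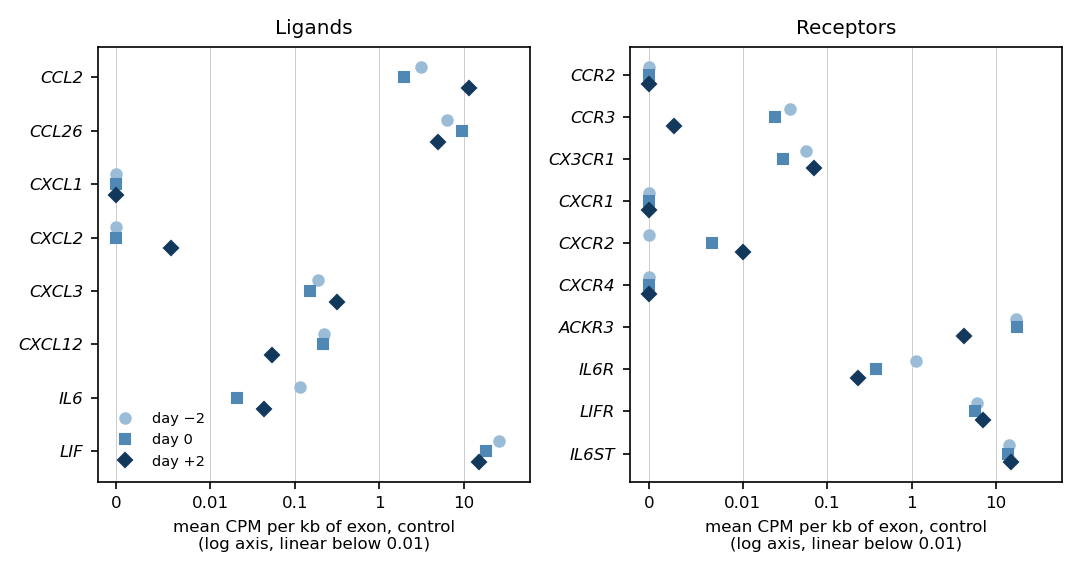
Mean CPM per kb of exon (log axis, linear below 0.01) of the member ligands (left) and of their receptors (right) in the pLKO.1 control, with 1 symbol per day of culture. LIF, CCL2 and CCL26 lie between 1 and 30 CPM per kb. ACKR3, LIFR and IL6ST lie above 1 at each day, and CCR2, CXCR1 and CXCR4 lie at 0 at each day.

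LIF, a cytokine that keeps cells of several lineages undifferentiated and acts on bone cells, is encoded at chr22:30636442-30642748 on the minus strand of GRCh37. Of its exon bases in GENCODE, 4.4% are overlapped by the antisense genes LIF-AS1 and LIF-AS2. In counts made without strand, reads there count for neither gene if both are annotated. Whether the annotation used for the counts held these antisense genes was not checked. LIF levels in the control were 98.2, 105.9 and 96.2 CPM when subconfluent, 67.2, 71.0 and 73.3 CPM when confluent and 60.5, 58.4 and 54.4 CPM when overconfluent. It fell at each step, by 0.50 on the log2 scale to day 0 (SE 0.05, adjusted p = 2.4e-08) and by 0.27 to day +2 (SE 0.06, adjusted p = 4.4e-04).

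In MMP2sh1, LIF was at 91.3, 101.6 and 92.0 CPM at day −2, at 83.3, 80.0 and 80.2 CPM at day 0 and at 79.2, 69.8 and 72.6 CPM at day +2. In MMP2sh2 it was at 100.2, 101.5 and 106.7 CPM at day −2, at 78.4, 88.4 and 77.7 CPM at day 0 and at 76.3, 71.3 and 78.2 CPM at day +2. The 3 lines overlapped when subconfluent, and both shRNA lines lay above the control in all libraries at the later days. Against the control, LIF was higher at day 0 by 0.20 in MMP2sh1 (SE 0.05, adjusted p = 0.0055) and by 0.19 in MMP2sh2 (SE 0.06, adjusted p = 0.018). At day +2 it was higher by 0.35 in MMP2sh1 (SE 0.07, adjusted p = 2.6e-04) and by 0.38 in MMP2sh2 (SE 0.06, adjusted p = 4.7e-05), or 1.28-fold and 1.30-fold. The day 0 values did not pass without control day 0 replicate 1 (0.17 in MMP2sh1, adjusted p = 0.056, and 0.16 in MMP2sh2, adjusted p = 0.13), and that of MMP2sh2 also not without its replicate 2 (0.13, adjusted p = 0.18).

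MMP2sh1 and MMP2sh2 differed in LIF by −0.12 (SE 0.07), 0.01 (SE 0.05) and −0.03 (SE 0.07) on the log2 scale at days −2, 0 and +2, none of which passed (adjusted p = 0.31, 0.94 and 0.86). The log2 fold change over the expansion was −0.79 in the control (SE 0.06, adjusted p = 4.5e-12), −0.37 in MMP2sh1 (SE 0.07, adjusted p = 1e-04) and −0.44 in MMP2sh2 (SE 0.07, adjusted p = 6.7e-07). The fall was smaller than in the control by 0.43 in MMP2sh1 (SE 0.09, adjusted p = 0.0029) and by 0.34 in MMP2sh2 (SE 0.09, adjusted p = 0.013). The latter did not pass without control day −2 replicate 2 (0.30, adjusted p = 0.054) or control day +2 replicate 3 (0.31, adjusted p = 0.056).

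IL6, the cytokine that gave the family its name, is encoded at chr7:22765503-22771621 on the plus strand of GRCh37. Of its exon bases 9.9% are overlapped by IL6-AS1 or STEAP1B on the opposite strand, and 16.5% of the 150-base windows of its longest protein-coding transcript are shared with IL6-AS1. It had 0 to 32 reads per library and 224 in all, with 0 in 3 libraries (MMP2sh1 day +2 replicates 2 and 3 and MMP2sh2 day +2 replicate 2). In the control it had 11, 32 and 19 reads at day −2, 2, 6 and 4 at day 0 and 6, 1 and 15 at day +2. IL6 passed the filter on low counts in 6 of the 16 comparisons and none was called. The log2 fold change from day −2 to day +2 in the control was −1.38 (SE 0.71, adjusted p = 0.10), and −2.35 without control day +2 replicate 3, which passed (adjusted p = 0.035). At day −2 it was −1.21 in MMP2sh1 and −1.11 in MMP2sh2 against the control (SE 0.71 and 0.66, adjusted p = 0.32 for both).

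The shared subunit IL6ST was at 134 to 201 CPM and LIFR at 53.4 to 87.3 CPM in all 27 libraries, so that RNA for both chains of the LIF receptor was present beside LIF. LIFR was lower in MMP2sh1 than in the control at days −2 and 0 by −0.28 and −0.30 (SE 0.06 for both, adjusted p = 0.0038 and 3.8e-04). It was lower in MMP2sh2 at days −2 and +2 by −0.27 and −0.28 (SE 0.06 for both, adjusted p = 0.0058 and 0.003), and the day +2 value did not pass without MMP2sh2 replicate 2 (−0.22, adjusted p = 0.054). IL6R, the receptor chain for IL6, had control means of 7.94 ± 1.52 (SD, n = 3), 2.66 ± 0.0189 and 1.64 ± 0.188 CPM at the 3 stages, a log2 fold change of −2.28 over the expansion (SE 0.19, adjusted p = 6.2e-11).

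The members called in each comparison can be read beside the share of all genes called. Of the 10 members, 2 were called in MMP2sh1 against the control at day −2 (7 tested), 4 at day 0 (6 tested) and 4 at day +2 (6 tested), where 11.6%, 16.8% and 14.8% of all genes tested were called. In MMP2sh2 against the control 0, 2 and 4 were called (7, 6 and 6 tested), where 11.0%, 12.9% and 6.32% of all genes were called. The 0 of MMP2sh2 at day −2 was 0 also with DESeq2, and 1 member, ACKR3, had an unadjusted p under 0.05 (0.013). Without control day 0 replicate 1, the 4 of MMP2sh1 at day 0 became 2. The 2 of MMP2sh2 at day 0 became 0 without control replicate 1 or MMP2sh2 replicate 2 and 1 without control replicates 2 or 3 or MMP2sh2 replicate 1. CCL2, CCL26, ACKR3 and LIF were the 4 called at day +2 in each shRNA line, with CCL2 and LIF higher and CCL26 and ACKR3 lower in both, and both lines were set against the same 3 control libraries.

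In the control 3 members were called from day −2 to day 0 (6 tested), 5 from day 0 to day +2 (6 tested) and 4 over the whole expansion (7 tested), where 35.5%, 41.4% and 56.8% of all genes were called. Over the expansion of MMP2sh1 and of MMP2sh2, 5 members were called in each (6 tested), where 54.9% and 54.7% of all genes were called. Where most genes are called, a count of members called is no result about them. Between MMP2sh1 and MMP2sh2, 3 members were called at each of days −2 (7 tested), 0 (6 tested) and +2 (6 tested), where 10.7%, 18.5% and 7.86% of all genes were called. The 3 at day +2 became 1 without MMP2sh1 replicate 2. In the interactions, 3 members were called for each shRNA line (7 tested), CCL2, ACKR3 and LIF in both, where 7.40% (MMP2sh1) and 4.98% (MMP2sh2) of all genes were called. The 3 of MMP2sh2 became 1 without control day −2 replicate 2 or control day +2 replicate 3.

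**Figure D4:**
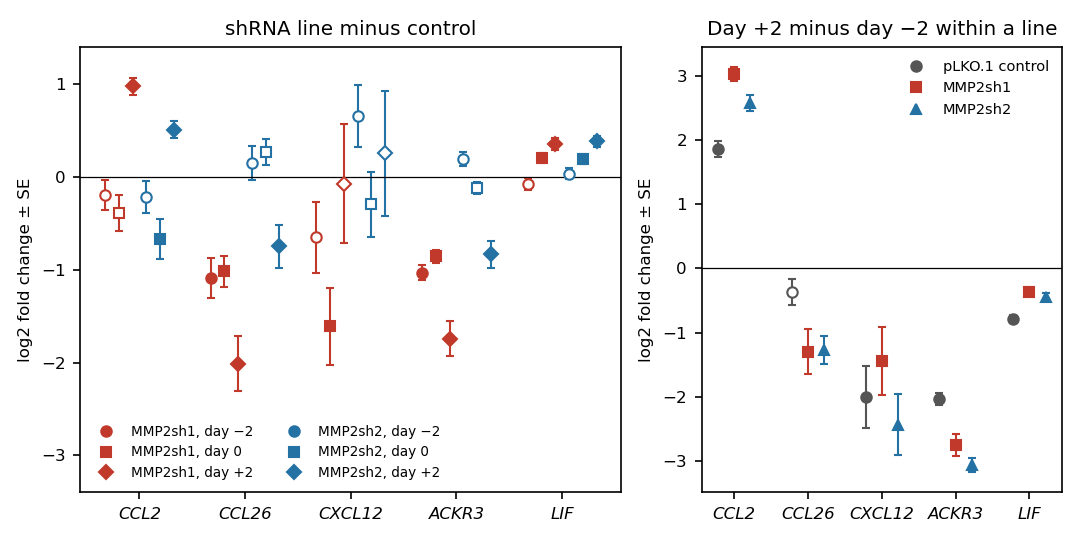
Log2 fold change ± standard error of 5 members, at left for each shRNA line minus the control at each day and at right for day +2 minus day −2 within each line (3 libraries a group). Filled symbols passed an adjusted p of 0.05 and open ones did not. At day +2 CCL2 and LIF lie above 0 and CCL26 and ACKR3 below 0 in both shRNA lines, and over the expansion CCL2 lies above 0 and the other 4 members below 0 in all 3 lines.

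The patterns of the 4 expressed members over the 27 libraries were compared as a description, on log2 CPM. CCL2 and ACKR3 had a Pearson correlation of −0.89, CCL26 and ACKR3 of 0.86, CCL2 and CCL26 of −0.75, ACKR3 and LIF of 0.51, CCL2 and LIF of −0.45 and CCL26 and LIF of 0.16. The points share the lines, the days and, in each pair, the libraries. Among 15135 genes with a mean of at least 1 CPM, the 3 most like CCL2 were IDS, COL22A1 and RGS16 (0.98, 0.97 and 0.97), those most like ACKR3 were PLEKHA7, TUBB4A and IRS1 (0.96 for each), those most like CCL26 were ENO3, HMGB2 and NOTUM (0.92, 0.91 and 0.91) and those most like LIF were PLEKHG3, RGMB and NPLOC4 (0.94, 0.94 and 0.93).

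The other genes of these families were described from fixed lists. Of 37 other chemokines, 7 had a mean of at least 1 CPM, with CXCL14 (334 CPM), CX3CL1 (32.2) and CXCL16 (12.1) highest, and 7 had no read. Over the expansion of the control, 6 of 9 tested rose and 0 fell (median log2 fold change 1.20 over the 9, and 0.03 over all genes, of which 56.8% were called in either direction, near the share in the list), among them CCL24 (2.69), CX3CL1 (2.64, SE 0.07, adjusted p = 4.2e-21) and CXCL14 (2.04, SE 0.05, adjusted p = 6.8e-22). In MMP2sh1 6 of 10 tested rose and in MMP2sh2 5 of 9, with 0 lower in both and with CCL24, CX3CL1 and CXCL14 higher in each. The shares of all genes called were 54.9% in MMP2sh1 and 54.7% in MMP2sh2. CCL2 rose in each line and CXCL12 fell in each, and CCL26 fell in the shRNA lines and was not called in the control. With all libraries, the CCL26 change of neither shRNA line passed as different from that of the control (interaction, adjusted p = 0.14 and 0.078). CXCL14, a chemokine made by epithelia and fibroblasts, was lower than in the control at day 0 by −0.62 in MMP2sh1 (SE 0.05, adjusted p = 8.8e-12) and by −0.90 in MMP2sh2 (SE 0.04, adjusted p = 1.9e-17), where 1 of 9 and 3 of 8 tested chemokines of the list were lower and 0 higher, with 16.8% and 12.9% of all genes called. At day −2 CXCL14 was also called lower in both shRNA lines, and at day +2 it was called in neither. The MMP2sh1 call at day −2 was lost with DESeq2 on the same libraries (adjusted p = 0.21) and without control replicate 3 (adjusted p = 0.055).

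Of the 21 other chemokine receptors, 6 were tested over the expansion of the control, of which 3 rose and 0 fell (median 1.44, with 56.8% of all genes called). In MMP2sh1 3 of 7 rose and 2 fell (median −0.43), and in MMP2sh2 2 of 6 rose and 1 fell (median 0.31), with 54.9% and 54.7% of all genes called. CCR1, a receptor for several CC chemokines, had 1, 6 and 9 reads at day −2 and 77, 105 and 106 at day +2 in the control (4.26, SE 0.49, adjusted p = 3.5e-08), and in MMP2sh1 it had 3, 7 and 0 reads and then 196, 179 and 217 (5.89, SE 0.43, adjusted p = 4.1e-11). At day +2 it was higher in MMP2sh1 than in the control by 1.01 (SE 0.19, adjusted p = 2.9e-04), which did not pass with all 27 libraries in 1 fit (adjusted p = 0.14 with edgeR and 0.15 with DESeq2). DARC rose over the expansion of the control by 2.09 (SE 0.24, adjusted p = 2.5e-08), of MMP2sh1 by 1.69 (SE 0.33, adjusted p = 1.2e-04) and of MMP2sh2 by 0.95 (SE 0.26, adjusted p = 0.0022). The atypical receptors ACKR3 and DARC thus changed in opposite directions in each line.

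Of 15 other genes of the IL6 family and its receptors, 12 had a mean of at least 1 CPM, and over the expansion of the control 7 of 13 tested rose and 2 fell (median 0.24, all genes 0.03), where 56.8% of all genes were called. OSMR, the oncostatin M receptor, rose by 0.57 (SE 0.05, adjusted p = 8.7e-11), and EBI3, a subunit of IL27, fell by 2.90 (SE 0.31, adjusted p = 8.2e-09) with IL6R. LIF fell as well (−0.79), the direction of the 2 and not of the 7 that rose. CNTFR, the receptor chain for CNTF, was lower in MMP2sh1 than in the control at days −2, 0 and +2, by −0.55, −0.48 and −0.95 (SE 0.13, 0.12 and 0.15, adjusted p = 0.0053, 0.0051 and 1.7e-05), and the day 0 value did not pass without control day 0 replicate 2 (−0.38, adjusted p = 0.051). In MMP2sh1 0 to 1 of the 13 tested genes of this list were higher and 3 lower at each day, and in MMP2sh2 2, 1 and 0 were higher and 2, 2 and 3 lower. Of all genes, 11.6%, 16.8% and 14.8% were called in MMP2sh1 at the 3 days and 11.0%, 12.9% and 6.32% in MMP2sh2.

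All 9 genes of JAK-STAT signalling were tested in each comparison. SOCS3, the feedback inhibitor, was lower in MMP2sh1 than in the control by −0.25, −0.39 and −0.32 at days −2, 0 and +2 (SE 0.07, 0.06 and 0.07, adjusted p = 0.016, 1.2e-05 and 0.0015), the first of which did not pass without control day −2 replicate 1 (−0.23, adjusted p = 0.10). It was also lower in MMP2sh2 at day 0 (−0.37, SE 0.06, adjusted p = 7.7e-05). SOCS3 rose over the expansion of the control by 0.54 (SE 0.06, adjusted p = 3.7e-08) while LIF fell. Of the 9 genes, 0 were higher and 2, 4 and 2 lower in MMP2sh1 at the 3 days (medians −0.15, −0.07 and 0.01), and 0 were higher and 1, 3 and 0 lower in MMP2sh2. Of all genes, 11.6%, 16.8% and 14.8% were called in MMP2sh1 at these days and 11.0%, 12.9% and 6.32% in MMP2sh2.

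Of the 24 genes of the NF-kB pathway and its targets, 20 were tested in the steps of the control. Up to confluence, 1 rose and 12 fell (median −0.34, all genes 0.02), and after it 11 rose and 1 fell (median 0.34, all genes 0.01). Of all genes, 35.5% were called up to confluence and 41.4% after it. These steps share the day 0 libraries. RELB, an NF-kB subunit, had means of 17.8 ± 0.986 (SD, n = 3), 8.65 ± 1.34 and 27.5 ± 1.88 CPM at the 3 stages, log2 fold changes of −1.04 (SE 0.11, adjusted p = 2.1e-08) and 1.70 (SE 0.10, adjusted p = 2.3e-14). CCL2 had the same order of days, lowest at day 0 and highest at day +2, with −0.66 and 2.54, and CCL26 had the reverse. A link between NF-kB and the level of either was not tested. Over the whole expansion the list had 6 genes higher and 7 lower in the control (median 0.07), 8 and 10 in MMP2sh1 (median −0.12) and 7 and 9 in MMP2sh2 (median −0.09), where 56.8%, 54.9% and 54.7% of all genes were called. CCL2 rose in all 3 lines. At day 0, 6 of 20 tested genes of this list were higher and 0 lower in MMP2sh2 than in the control, BIRC3 among them (1.04, SE 0.21, adjusted p = 6e-04), and 0 of 19 were higher and 1 lower in MMP2sh1. Of all genes, 12.9% were called in MMP2sh2 and 16.8% in MMP2sh1. On that day CCL2 was below the control in all libraries of both lines, but was not called in MMP2sh1 (adjusted p = 0.18). Its call in MMP2sh2 (adjusted p = 0.033) was lost with any 1 of several libraries left out.

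Of 6 partners of CXCL12 and its receptors, 3 were lower and 0 higher over the expansion of the control and of MMP2sh1, and 4 and 0 in MMP2sh2. Of all genes, 56.8%, 54.9% and 54.7% were called in the control, MMP2sh1 and MMP2sh2, so that the counts of partners are no result about them. DPP4, a peptidase that trims and inactivates CXCL12, fell, with log2 fold changes of −1.50 in the control (SE 0.27, adjusted p = 2.6e-05), −1.33 in MMP2sh1 (SE 0.22, adjusted p = 1.6e-05) and −0.80 in MMP2sh2 (SE 0.24, adjusted p = 0.0049). ARRB2, an arrestin that ACKR3 recruits, fell too, with −0.52, −0.88 and −0.65 (SE 0.07, 0.08 and 0.08, adjusted p = 5.9e-07, 9.5e-10 and 3.3e-08). CXCL12, ACKR3, DPP4 and ARRB2 were each lower at day +2 than at day −2 in each of the 3 lines, and a link between them was not tested. Against the control, 0 of the 6 partners were lower in either shRNA line at any day and 1, GRK2 (named ADRBK1 in the files), was higher, in MMP2sh2 at day −2 (0.21, SE 0.06, adjusted p = 0.023), where it did not pass without control replicates 1 or 2 or MMP2sh2 replicate 3 (adjusted p 0.075 to 0.12). In the comparisons with the control, 6.32% to 16.8% of all genes were called.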

How the data were processed

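Poly(A) RNA of 27 U2OS libraries (3 lines, 3 days, 3 libraries each, stated by the study to be independent biological replicates) was analysed. Counts per gene, deposited as whole numbers without normalization, were made by the authors with Trim Galore 0.6.0, STAR 2.7.3a (hg19) and HTSeq 2.0.0, on exons and without strand, after a filter on alignment quality. The 5 summary lines that name no gene (16.8% to 19.1% of each file's total) were left out. In the union mode reads on overlapping genes count for neither, and fewer cells of a type and less RNA per cell cannot be told apart in bulk counts.

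Each of 14 comparisons was fitted on its 6 libraries, and each of 2 interactions on 12, with edgeR 4.0.16 in R 4.3.3 (TMM, filterByExpr with minimum count 10 and minimum total 15, quasi-likelihood test, Benjamini-Hochberg adjustment over all genes tested, called at an adjusted p under 0.05). A standard error is the log2 fold change divided by the root of F. CPM use TMM factors over the 27 libraries. Correlations use log2 CPM with a prior count of 2. Per-kilobase levels divide CPM by the summed exon length of GENCODE (GRCh37). Promoters are from RefSeq (GRCh38.p14). The fits were tested on simulated data. Pairs of libraries of one group differed by more than sampling noise in each group, most for 1 library of MMP2sh1 at day −2.

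The members and lists were chosen with earlier results of these data known. The 10 members and MMP2 are named. Of each list at most the 4 called genes with the largest change per comparison are named, and for each member of at least 1 CPM the 3 genes most like it. OSMR, the level of CXCL16 and the levels of the members' receptors were named outside this rule, after their values were seen. Not every gene that the rule gives is reported here, and the counts over lists include all of their genes. Alternatives were DESeq2 1.42.0 and edgeR on the same or all 27 libraries, RLE scaling, no filter, the replicate number as a block, CPM without TMM factors and each library left out in turn.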

Additional observations from a re-analysis of the deposited data

Results flagged for a closer look

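The change from day −2 to day +2 differed between an shRNA line and the control, by the interaction test of edgeR's quasi-likelihood fit, in 3 members for each line. For CCL2 the difference was 1.17 in MMP2sh1 and 0.71 in MMP2sh2 on the log2 scale, for ACKR3 −0.71 and −1.04, and for LIF 0.43 and 0.34 (standard errors and adjusted p are given in the report). Both lines are set against the same control libraries, and leaving out 1 library ended the call of ACKR3 in MMP2sh1 and of CCL2 and LIF in MMP2sh2.

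Of the fixed lists, 5 genes differed in MMP2sh1. The chemokine CCL24 rose more than in the control by 1.42 (SE 0.22, adjusted p = 6.7e-05), CX3CL1 rose less by −0.54 (SE 0.12, adjusted p = 0.0039), NFKBIZ differed by 0.58 (SE 0.13, adjusted p = 0.0042), ARRB2 by −0.35 (SE 0.10, adjusted p = 0.035) and NFKB1 by 0.29 (SE 0.09, adjusted p = 0.048). In MMP2sh2, list genes differed too. NFKBIA differed by −0.53 (SE 0.10, adjusted p = 0.0012), CXCL14 by 0.36 (SE 0.08, adjusted p = 0.0027), BCL3 by −0.53 (SE 0.13, adjusted p = 0.0082) and IL11RA by −0.66 (SE 0.18, adjusted p = 0.02). ICAM1 had a fitted difference of −4.21 (SE 1.25, adjusted p = 0.043) from few reads, 18, 3 and 6 in the control at day −2, 12, 14 and 13 at day +2, and 24, 9 and 12 and then 0, 2 and 2 in MMP2sh2, so that the fitted size depends on the prior count and is no bound. The call of CXCL14 was lost in both fits of all 27 libraries (adjusted p = 0.071 with edgeR and 0.18 with DESeq2), that of NFKB1 with RLE scaling (adjusted p = 0.058) and without a filter (adjusted p = 0.096), and that of ICAM1 with edgeR on all 27 libraries (adjusted p = 0.081). With the replicate number as a block, the calls of NFKB1 (0.29, adjusted p = 0.057) and ICAM1 (−4.23, adjusted p = 0.059) were lost too. Those of NFKB1, ARRB2, IL11RA and ICAM1 were also lost without any of several single libraries, controls included, with values of 0.22 to 0.31 for NFKB1, −0.28 to −0.36 for ARRB2, −0.52 to −0.64 for IL11RA and −3.67 to −4.83 for ICAM1 where the call was lost.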

How the results depend on the processing

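No called result of the members reversed, and the direction of uncalled values was not compared. The count of members called stayed within 1.5 times in all 96 refits with another tool, scaling, filter, set of libraries or the block. With 1 library left out it moved in 9 of 108 refits: from 4 to between 2 and 4 for MMP2sh1 against the control at day 0, from 2 to between 0 and 2 for MMP2sh2 at day 0, from 3 to between 1 and 3 for MMP2sh1 against MMP2sh2 at day +2 and from 3 to between 1 and 4 for the interaction of MMP2sh2. Among log2 fold changes of members, 575 refits kept the side of the threshold and, where called, the direction, and 4 calls were lost (CCL26 in MMP2sh2 at day +2 with DESeq2 and with the block, CXCL12 between the shRNA lines at day 0 in both fits of all 27 libraries). With a library left out, 656 did so, 35 calls were lost and 5 gained, each named in the report, and the cause was not tested. Of called list genes, 1166 such refits kept the call and 78 lost it, and with a library left out 1118 kept and 202 lost it. The count of all genes called for MMP2sh1 against MMP2sh2 at day −2 was 2009, and 3239 with DESeq2 on all 27 libraries. With 1 library left out, the lowest counts of all genes called were 1321 (of 2184 with all libraries) for MMP2sh1 against the control at day −2, without control replicate 1, 728 (of 2080), 1509 (of 2456) and 679 (of 1222) for MMP2sh2 at days −2, 0 and +2, without control replicate 1, MMP2sh2 replicate 2 and control replicate 3, 1208 (of 2009) and 885 (of 1527) between the shRNA lines at days −2 and +2, without MMP2sh1 replicate 1 and MMP2sh2 replicate 1, and 934 (of 1520) and 541 (of 1029) in the interactions of MMP2sh1 and MMP2sh2, both without control day +2 replicate 3.

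Replicate numbers did not pair the libraries (correlation of deviations −0.025 to 0.036 over 42 pairs, 17 best with their own number). With the replicate number as a block, CCL26 in MMP2sh2 at day +2 was −0.73 (adjusted p = 0.074), and no other call of a member changed. CXCL1, CXCL2 and CXCR4 had too few reads for any comparison, and IL6 passed the filter on low counts in 6 of 16.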
